A study of Homo sapiens with 12 samples.

Results

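The genes described here are 9 targets of the transcription factor p53: CDKN1A, MDM2, FAS, BAX, BBC3, GADD45A, RRM2B, ZMAT3 and TP53INP1. They were taken by gene name from a table of 50868 genes, in which each name had 1 row. All 9 passed the filter on low counts, which left 16554 genes for testing. Their levels were followed in RPMI2650, a human epithelial line that came from a tumour of the nasal septum, so that 1 tumour line stands for the nasal epithelium throughout. The first group held 4 RNA-seq libraries of cells given 1 µM perfluorohexanoic acid (PFHxA) for 7 days, and the second held 4 libraries of cells given 1 µM perfluorobutanoic acid (PFBA) for 7 days. The third held 4 control libraries, for which the labels give no vehicle and no day. All 3 groups carry the genotype label Wild Type, and the design text places the exposed cells at an air-liquid interface. Both compounds are perfluorinated fatty acids with a carboxyl group, and PFHxA is the longer of the pair. The question put by the design is how the chain length of such an acid bears on the transcriptome. Nothing in the labels says that the libraries of a group came from separate cultures, so p-values measure the spread between libraries, which may be technical.

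p53 is held at a low level by MDM2, a ubiquitin ligase that marks it for degradation and is itself a p53 target. When DNA is damaged, kinases free p53 from MDM2, and p53 then switches on genes for growth arrest (CDKN1A, GADD45A), for the supply of nucleotides for repair (RRM2B), for control of mRNA fate (ZMAT3) and for cell death (BAX, BBC3, FAS, TP53INP1). FAS is the cell surface receptor for FAS ligand and starts the extrinsic route of apoptosis through FADD and caspase 8.

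p53 acts through a paired motif in DNA, the p53 response element, and 2 of the genes carried a close match to it near a start site. RefSeq promoter windows (GRCh38.p14, 250 bases before to 50 after a start) were at hand for 6 of the 9 genes, CDKN1A, MDM2, FAS, BAX, BBC3 and ZMAT3, in 12 windows. A match over 20 bases with at most 2 mismatches and no spacer, searched on both strands, was found in windows of FAS and MDM2. Such a match was held by 100 of the 35116 windows in the table, or 0.285%, and by 98 of 27305 genes, or 0.359%. Of the 12 windows here 3 held it, and the MDM2 windows among them overlap and hold the same site. A window of FAS and a window of MDM2 are shown because they place the element at the receptor gene and at the feedback gene, with the match in capitals. In FAS the match lies in an exon of 2 and in an intron of 11 of 20 annotated transcripts, and in MDM2 in an intron of 7 of 34 transcripts and in no exon. A match describes letters only, and no match in a window says only that the letters are not in it.
FAS, chr10:88991181-88991480, plus strand: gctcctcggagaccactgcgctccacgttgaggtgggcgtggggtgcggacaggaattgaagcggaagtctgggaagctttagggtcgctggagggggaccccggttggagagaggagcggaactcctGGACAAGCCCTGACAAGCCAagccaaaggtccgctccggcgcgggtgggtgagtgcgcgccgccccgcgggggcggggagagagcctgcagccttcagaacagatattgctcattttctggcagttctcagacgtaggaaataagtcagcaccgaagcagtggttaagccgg
MDM2, chr12:68808767-68809066, plus strand: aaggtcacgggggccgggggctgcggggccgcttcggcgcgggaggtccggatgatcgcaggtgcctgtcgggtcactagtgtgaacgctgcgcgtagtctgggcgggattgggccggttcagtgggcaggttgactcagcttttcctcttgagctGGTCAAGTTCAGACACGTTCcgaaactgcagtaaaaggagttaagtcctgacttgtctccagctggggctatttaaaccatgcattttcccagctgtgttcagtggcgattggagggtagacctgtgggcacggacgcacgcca

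The libraries held between 18051645 and 20405688 counts in PFHxA cells, between 18411985 and 21879105 in PFBA cells and between 16941599 and 21508681 in control cells. Levels are given as CPM, counts scaled by the library total over tested genes times the TMM scaling factor of the library. Libraries are named by the column letters a to d. Of 10 epithelial markers, KRT14 and GRHL2 averaged under 1 CPM. The 10 markers summed to 2810 to 3021 CPM in PFHxA cells, 2564 to 2684 CPM in PFBA cells and 2773 to 2810 CPM in control cells. KRT5 made up most of these sums, with means of 2046, 1812 and 1921 CPM in PFHxA, PFBA and control cells. Among 9 tested markers, EPCAM was called lower in PFHxA than in control cells and KRT5 higher in PFHxA than in PFBA cells. Neither was called with the trend along GC content and length removed. The 7 leukocyte markers, 6 of them under 1 CPM, summed to 1.42 to 2.97 CPM in PFHxA cells, 1.37 to 3.18 CPM in PFBA cells and 1.62 to 2.38 CPM in control cells. The 8 fibroblast markers, 4 of them under 1 CPM, summed to 42.0 to 46.2 CPM in PFHxA cells, 37.0 to 43.6 CPM in PFBA cells and 38.0 to 45.0 CPM in control cells. The 6 endothelial markers, 5 of them under 1 CPM, summed to 9.34 to 11.8 CPM in PFHxA cells, 9.89 to 11.4 CPM in PFBA cells and 7.61 to 12.2 CPM in control cells. In PFHxA libraries, levels leaned towards GC-rich transcripts by 0.0674 to 0.0984 log2 units per 10 points of GC, against -0.0683 to -0.00362 in PFBA libraries and -0.0621 to -0.00849 in control libraries. All tests were therefore repeated after a per-library trend along GC content and transcript length had been taken out. For PFHxA against control, calls of the 9 genes and of the lists around p53 and FAS are given with and without that trend. For PFHxA against PFBA, calls of the 9 genes are given in the same way.

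Per length, CDKN1A was the most abundant of the 9 genes. Levels between genes are compared as CPM per kilobase of the longest GENCODE 29 transcript, which averaged 283 ± 15.1 for CDKN1A over 12 libraries (SD), 79.4 ± 4.30 for BAX, 34.3 ± 2.01 for GADD45A and 30.1 ± 1.21 for ZMAT3. RRM2B averaged 17.7 ± 1.59, TP53INP1 11.2 ± 0.602, BBC3 9.42 ± 1.05, FAS 9.16 ± 1.80 and MDM2 5.22 ± 2.30 CPM per kilobase. The ranges over libraries of GADD45A (31.9 to 38.7) and ZMAT3 (28.2 to 32.1) overlapped. So did those of TP53INP1 (10.2 to 12.5), BBC3 (7.51 to 10.9) and FAS (6.33 to 11.1). These neighbours are not separated by their spread. MDM2 (3.45 to 12.2) reached them only through PFHxA library d, and in every other library it lay below the range of FAS. CDKN1A and BAX stood clear of every other gene, and RRM2B (15.5 to 19.9) of its neighbours.

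**Figure D1:**
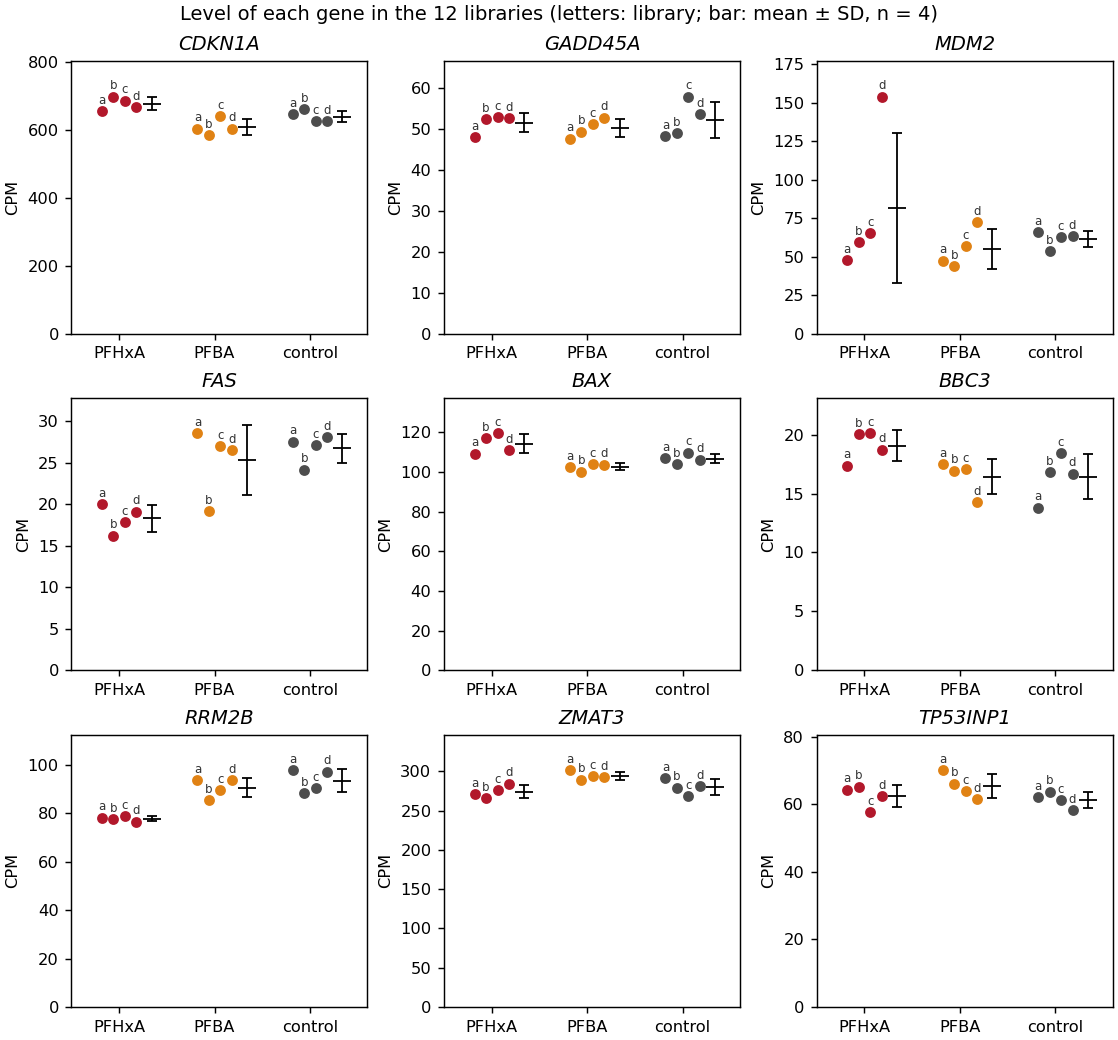
Levels of the 9 genes in CPM (vertical axes, linear) in 4 PFHxA, 4 PFBA and 4 control libraries, each point a library marked with its column letter and the bar the group mean with SD. FAS and RRM2B are lower in all 4 PFHxA libraries than in any control library, and MDM2 is high in 1 PFHxA library, at 153.9 CPM.

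FAS and RRM2B were the genes of the 9 that differed between PFHxA and control cells, both lower in PFHxA, and neither passed the threshold once the trend was removed. None of the 9 was called higher in PFHxA than in control cells. The groups did not overlap for these 2 genes and for none of the other 7, where 20.7% of all genes had groups that did not overlap. In the trend-removed fit none of the 9 was called, against 2.62% of all genes. Of all 16554 genes tested, 14.9% were called in this comparison, 6.08% higher and 8.82% lower in PFHxA (edgeR quasi-likelihood test, Benjamini-Hochberg adjusted over all genes, threshold 0.05). The median log2 fold change of the 9 genes was 0.03, against -0.0039 over all genes tested. An unadjusted p under 0.05 was reached by 4 of the 9 genes and by 28.5% of all genes.

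FAS, the death receptor, lies at chr10:88990531-89015785 (GRCh38, plus strand). It had 20.05, 16.2, 17.8 and 19.1 CPM in PFHxA cells, 28.6, 19.2, 27.1 and 26.5 CPM in PFBA cells and 27.6, 24.2, 27.2 and 28.1 CPM in control cells. All 4 PFHxA libraries lay below all 4 control libraries. Among PFBA libraries 3 lay within or close to the control range, and library b lay inside the PFHxA range. FAS averaged 18.3 ± 1.66 CPM in PFHxA cells, 25.3 ± 4.20 CPM in PFBA cells and 26.8 ± 1.77 CPM in control cells (SD, n = 4 each). The log2 fold change of PFHxA against control was -0.55 ± 0.11 (SE), a level 31.6% lower (95% interval 19.1% to 42.1% lower), with an adjusted p of 0.00651. It was called in each of 12 fits that left out 1 library. With the trend removed it was -0.34 with an adjusted p of 0.0901. FAS transcripts have 39.1% GC, and among the 2509 genes under 40% GC, 31.7% were called lower and 0.159% higher in PFHxA, with a median log2 fold change of -0.20. FAS shares 860 nt with ACTA2 on the opposite strand, and without a stated strand setting reads there cannot be told apart. ACTA2 averaged 79.6, 74.0 and 75.5 CPM in PFHxA, PFBA and control cells, and its adjusted p for PFHxA against control was 0.396. In bulk RNA, fewer cells that carry a transcript and less of it per cell cannot be told apart.

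RRM2B, the p53-inducible small subunit of ribonucleotide reductase (chr8:102204502-102239118, minus strand), had 78.3, 77.7, 78.8 and 76.6 CPM in PFHxA cells, 93.9, 85.5, 89.5 and 93.7 CPM in PFBA cells and 97.9, 88.3, 90.4 and 97.3 CPM in control cells. The PFHxA libraries lay close together and below every library of both other groups, whose ranges overlapped. The log2 fold change of PFHxA against control was -0.26 ± 0.05 (SE), 16.7% lower (95% interval 10.8% to 22.2%), with an adjusted p of 0.00304. It was called in all 12 fits that left out a library. With the trend removed the value was -0.07 with an adjusted p of 0.401. At 36.4%, RRM2B has the lowest transcript GC content of the 9 genes. Its sister subunit RRM2, which serves dividing cells, averaged 56.7 ± 2.77, 54.7 ± 3.05 and 55.5 ± 0.619 CPM in PFHxA, PFBA and control cells and was not called in any comparison. The large subunit RRM1 was lower in PFHxA than in control cells (158 ± 3.45 against 180.2 ± 12.2 CPM, log2 fold change -0.19, adjusted p = 0.0164), and its trend-removed value was -0.10 with an adjusted p of 0.266.

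MDM2 (chr12:68808172-68850686, plus strand) was set apart by 1 library. The 4 other annotated genes that overlap it had at most 9 counts in any library. MDM2 had 47.7, 59.2, 65.1 and 153.9 CPM in PFHxA cells, 47.4, 43.5, 56.5 and 72.5 CPM in PFBA cells and 65.9, 53.6, 62.8 and 63.4 CPM in control cells. Apart from PFHxA library d, every library lay between 43.5 and 72.5 CPM and the groups overlapped. The log2 fold change of PFHxA against control was 0.41 ± 0.34 (SE, adjusted p = 0.494) with all libraries and -0.10 without PFHxA library d. Against PFBA it was 0.57 with all libraries (adjusted p = 0.334) and 0.06 without that library. It had the 5th largest excess in that library among 10072 genes with a mean of at least 10 CPM, behind BLOC1S5-TXNDC5, NRSN2, STK4 and PDPR. CDKN1A in the same library, at 666 CPM, lay within the range of the other PFHxA libraries.

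The growth arrest genes showed no call against control. CDKN1A, the p21 inhibitor of cyclin-dependent kinases (chr6:36676460-36687339, plus strand), had 656, 697, 685 and 666 CPM in PFHxA cells, 603, 584, 639 and 603 CPM in PFBA cells and 645, 659, 626 and 624 CPM in control cells. All PFHxA libraries lay above all PFBA libraries, and the control libraries overlapped both. Against control the log2 fold change was 0.08 ± 0.04 (SE), with a 95% interval for the change from 0.00862% lower to 12.1% higher and an adjusted p of 0.176. GADD45A, a stress sensor that binds PCNA and p21 (chr1:67685061-67688338, plus strand), averaged 51.5 ± 2.36 CPM in PFHxA cells, 50.2 ± 2.20 CPM in PFBA cells and 52.2 ± 4.48 CPM in control cells, and its groups overlapped. Its interval for PFHxA against control ran from 10% lower to 8.39% higher (adjusted p = 0.894). GADD45B, its relative, averaged 3.21, 3.24 and 2.93 CPM in PFHxA, PFBA and control cells and was not called in any comparison.

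The mitochondrial death genes had positive fold changes in PFHxA against control that did not pass the threshold. BAX, which opens the outer mitochondrial membrane (chr19:48954815-48961798, plus strand), had 109.3, 117, 119 and 110.9 CPM in PFHxA cells, 102.6, 100.1, 104 and 103.7 CPM in PFBA cells and 106.9, 103.9, 109.7 and 106 CPM in control cells. PFHxA library a overlapped the control range, and no PFHxA library overlapped the PFBA range. The log2 fold change against control was 0.10 ± 0.04 (SE, adjusted p = 0.115). BBC3, which encodes the BH3-only protein PUMA (chr19:47220822-47232766, minus strand), averaged 19.1 ± 1.30 CPM in PFHxA cells, 16.4 ± 1.45 CPM in PFBA cells and 16.4 ± 1.93 CPM in control cells. Its log2 fold change against control was 0.22 ± 0.09 (SE, adjusted p = 0.153), and the groups overlapped. BAK1, the partner of BAX, averaged 28.9 ± 1.81, 24.5 ± 1.53 and 27.7 ± 2.31 CPM in PFHxA, PFBA and control cells, and BCL2, which restrains both, averaged 119.7 ± 3.93 CPM in PFHxA cells, 122 ± 3.95 CPM in PFBA cells and 114 ± 7.64 CPM in control cells. Neither was called.

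ZMAT3 and TP53INP1 were not called in any comparison. ZMAT3, an RNA-binding zinc finger protein (chr3:179017223-179072279, minus strand), had 271, 266, 276 and 284 CPM in PFHxA cells, 302, 289, 294 and 293 CPM in PFBA cells and 291, 279, 268 and 282 CPM in control cells. Its PFHxA libraries all lay below its PFBA libraries, with a log2 fold change of -0.10 and an adjusted p of 0.0855. TP53INP1, a p53 cofactor linked to cell death and autophagy (chr8:94925972-94949411, minus strand), averaged 62.5 ± 3.36 CPM in PFHxA cells, 65.5 ± 3.68 CPM in PFBA cells and 61.4 ± 2.34 CPM in control cells, and the groups overlapped. The whole TP53INP1 span, 23440 nt, overlaps NDUFAF6 on the opposite strand, and without a stated strand setting reads there cannot be told apart. NDUFAF6 averaged 27.8 CPM in PFHxA cells, 27.5 CPM in PFBA cells and 30.2 CPM in control cells.

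**Figure D2:**
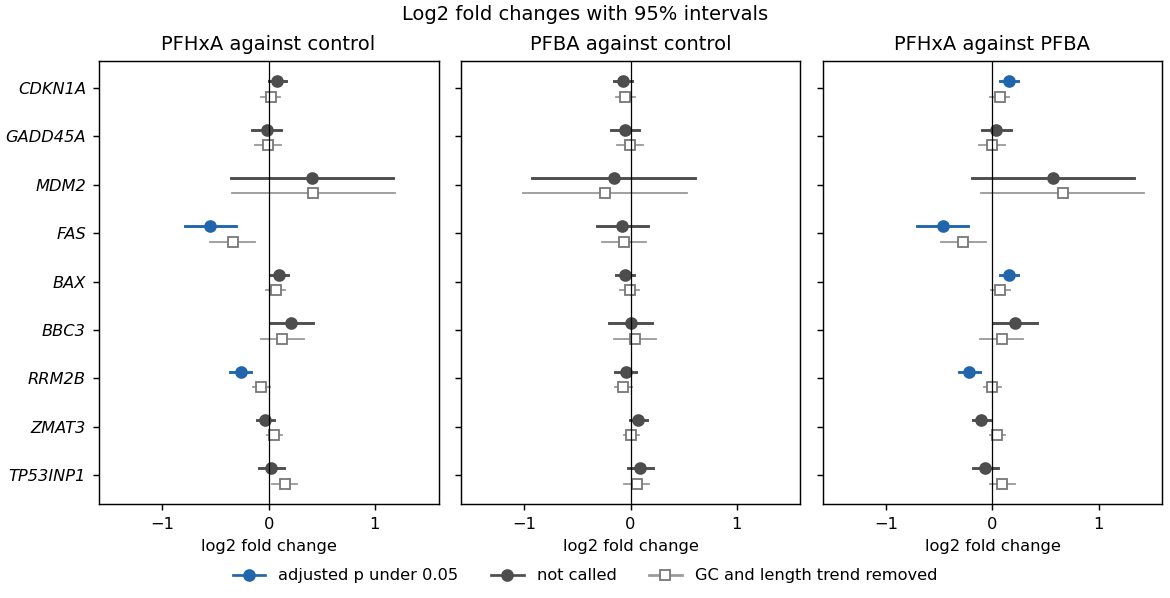
Log2 fold changes of the 9 genes (points) with 95% intervals (bars), for PFHxA against control, PFBA against control and PFHxA against PFBA, from the fit as counted and from the trend-removed fit. The FAS and RRM2B intervals for PFHxA against control lie below 0 as counted, with values of -0.55 and -0.26, and the trend-removed values are -0.34 and -0.07.

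None of the 9 genes was called in PFBA against control cells. The smallest adjusted p for PFBA against control was 0.545, none of the 9 had an unadjusted p under 0.05 (9.86% of all genes did), and in none did the groups separate. In this comparison 1 of the 16554 genes was called, or 0.00604%, and 5.96% had groups that did not overlap. DESeq2 called 44 genes, none of them among the 9. Without MDM2, the 95% intervals of the other 8 genes ran between 19.7% lower and 15.5% higher in PFBA than in control cells. For MDM2 the interval ran from 47.4% lower to 52.3% higher. The median log2 fold change of the 9 genes was -0.05, against -0.0026 over all genes.

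The 2 acids were compared at the same dose and day, and 4 of the 9 genes differed between them, CDKN1A and BAX higher and FAS and RRM2B lower in PFHxA cells. Over all genes 10.9% were called in this comparison, 3.84% higher and 7.07% lower in PFHxA. This comparison shares its PFHxA libraries with the one against control. CDKN1A averaged 676 ± 18.7 CPM in PFHxA cells and 607 ± 23.0 CPM in PFBA cells, a log2 fold change of 0.15 ± 0.04 (SE), 11.3% higher (95% interval 5.13% to 17.9%), with an adjusted p of 0.0207. BAX averaged 114 ± 4.89 CPM in PFHxA cells and 103 ± 1.74 CPM in PFBA cells, also 11.3% higher (95% interval 4.96% to 18%, adjusted p = 0.0232). For both genes the mean of the control libraries lay between those of the 2 acids. The call for CDKN1A was lost without PFHxA library b or c or without PFBA library a or d (highest adjusted p 0.0646). The call for BAX was lost without PFHxA library b or c or without any 1 PFBA library (highest adjusted p 0.0719), and with no filter on low counts (adjusted p = 0.069).

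FAS was 27.8% lower in PFHxA than in PFBA cells (95% interval 14.6% to 38.9%, adjusted p = 0.0174), although PFBA library b, at 19.2 CPM, lay below PFHxA library a, at 20.05 CPM. The call was lost without PFHxA library b or without PFBA library a, c or d (highest adjusted p 0.0605), and without PFBA library b the log2 fold change was -0.58. PFBA library b also had the highest GC slope of its group, -0.00362 log2 units per 10 points, and the part of this in its FAS level was not tested. RRM2B was 14.1% lower (95% interval 7.99% to 19.8%, adjusted p = 0.00942), and this call held in all 12 fits that left out a library. The groups did not overlap in 4 of the 9 genes, CDKN1A, BAX, RRM2B and ZMAT3, where 20% of all genes had such groups. In the trend-removed fit none of the 9 was called, against 0.882% of all genes, and the log2 values were 0.07 for CDKN1A, 0.07 for BAX, -0.27 for FAS and -0.00095 for RRM2B (smallest adjusted p 0.228). For BBC3, GADD45A, TP53INP1 and MDM2 the 95% intervals of the difference ran from 0.698% to 33.6% higher, from 6.54% lower to 12.5% higher, from 11.9% lower to 3.37% higher and from 12.7% lower to 152% higher in PFHxA cells.

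**Figure D3:**
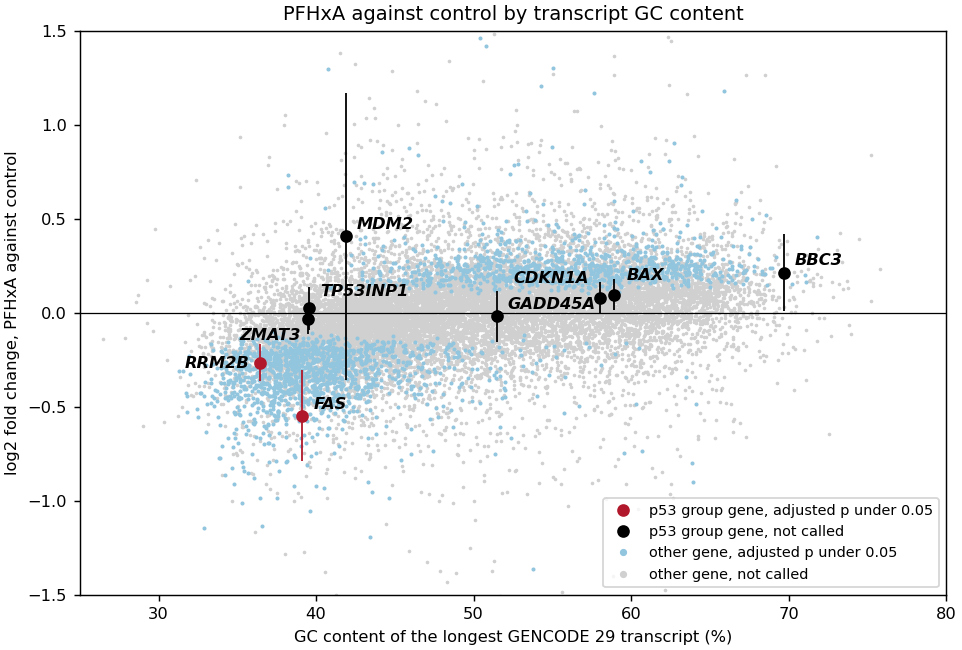
Log2 fold change of PFHxA against control (vertical axis, cut at 1.5 either way) against GC content of the longest transcript in percent (horizontal axis), with the 9 genes as large points with 95% intervals and all other tested genes as small points. FAS and RRM2B, at 39.1% and 36.4% GC, sit in the class under 40% GC with a median of -0.20, and BAX and BBC3, at 58.9% and 69.7% GC, in the class over 55% with a median of 0.10.

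The 9 genes span both ends of the GC range. Among genes over 55% GC, 11.3% were called higher and 0.417% lower in PFHxA than in control cells, with a median log2 fold change of 0.10. CDKN1A, at 58.0% GC, BAX, at 58.9%, and BBC3, at 69.7%, belong to that class and had fold changes of 0.08, 0.10 and 0.22. RRM2B, FAS, ZMAT3 and TP53INP1 lie under 40% GC, and the last 2 had fold changes of -0.03 and 0.03, above the median of -0.20 for that class. Across genes, which are not independent replicates, the correlation of log2 fold change with GC content was 0.466 over 9 genes and 0.72 over the 8 genes other than MDM2. In the trend-removed fit TP53INP1 stood at 0.15 with an adjusted p of 0.165.

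Among the regulators of the pathway, MDM4, the relative of MDM2 that blocks p53, spread widely within groups. It ranged over 9.67 to 48.9 CPM in PFHxA cells, 7.61 to 44.6 CPM in PFBA cells and 6.41 to 25.2 CPM in control cells, and was not called. Among the 10072 genes with a mean of at least 10 CPM, 5.41% had a highest library at least 2 times the lowest within some group, and MDM2, with a ratio of 3.22, was the only one of the 9. The other 8 stayed at or below 1.49. Of 23 regulators of p53, 4 were higher in PFHxA than in control cells (HIPK2, EP300, CREBBP and PRKDC) and 4 lower (ATM, CHEK1, COP1 and RPL5), where 6.08% of all genes were called higher and 8.82% lower. With the trend removed, CREBBP, PRKDC and COP1 stayed called and the other 5 did not, where 2.62% of all genes were called. CREBBP, an acetyltransferase that acts on p53, averaged 169 ± 2.75 CPM in PFHxA cells and 131 ± 8.85 CPM in control cells (log2 fold change 0.37, adjusted p = 0.00152), and its trend-removed value was 0.19 (adjusted p = 0.0203). ATM, a kinase that activates p53 after DNA breaks, averaged 119.8 ± 5.24 CPM in PFHxA cells and 141 ± 3.47 CPM in control cells (-0.23, adjusted p = 0.00393), and its trend-removed adjusted p was 0.0573.

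Other p53 targets were called at close to the share of all genes, in both directions. Of 58 on 4 lists, 56 were tested and 9 were called in PFHxA against control, 3 higher and 6 lower. That is 16.1% beside 14.9% of all genes. With the trend removed only REV3L and GDF15 of these 9 targets stayed called, where 2.62% of all genes were called. Among 14 growth arrest and feedback genes, TRIM22 (-0.26) was lower and the other 13 were not called. Of 9 DNA repair genes, POLK, RPS27L, REV3L and ASCC3 were lower. REV3L, the catalytic subunit of translesion polymerase zeta, averaged 70.2 ± 8.72 CPM in PFHxA cells and 89.1 ± 7.53 CPM in control cells (-0.34, adjusted p = 0.0136), and its trend-removed adjusted p was 0.0455. The list headed cell death had 18 tested targets, and the heading does not give the direction in which a gene acts on death. Of these, TNFRSF10B, the death receptor for TRAIL, was higher (427 ± 7.36 against 381 ± 10.9 CPM, log2 fold change 0.17, adjusted p = 0.00671). LIF was higher (0.12) and TRIAP1 lower (-0.35). With the trend removed none of the targets on that list was called, and the adjusted p was 0.0533 for TNFRSF10B, 0.823 for LIF and 0.0779 for TRIAP1. Among 15 genes of metabolism and redox control, GDF15, a secreted stress cytokine, averaged 141 ± 2.71 CPM in PFHxA cells and 115 ± 3.45 CPM in control cells (0.30, adjusted p = 0.00177), and its trend-removed value was 0.25 with an adjusted p of 0.00953. No gene of any of these lists was called in PFBA against control cells. In PFHxA against PFBA, 6 of the 56 tested targets were called, 2 higher and 4 lower, which is 10.7% beside 10.9% of all genes. With the trend removed REV3L alone stayed called there, beside 0.882% of all genes. Of the 23 regulators, CREBBP was higher and ATM, CHEK1, SIRT1 and RPL11 were lower in PFHxA than in PFBA cells. None of these regulators was called with the trend removed.

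The ligand of FAS and the initiator caspase of its pathway were scarce. FASLG stayed at or below 0.109 CPM in every library and was not tested. FADD, the adaptor that links FAS to caspase 8, averaged 37.8 ± 1.29 CPM in PFHxA cells, 36.4 ± 0.775 CPM in PFBA cells and 38.4 ± 2.17 CPM in control cells. CASP8, the initiator caspase, averaged 3.27 ± 0.748 CPM in PFHxA cells, 3.80 ± 0.395 CPM in PFBA cells and 4.34 ± 0.208 CPM in control cells, with an adjusted p of 0.0912 for PFHxA against control. Of 19 tested genes of FAS signalling, none was called in PFHxA against control, with or without the trend. The shares over all genes were 14.9% and, with the trend removed, 2.62%. None was called in PFBA against control. In PFHxA against PFBA 1 was called, where 10.9% of all genes were. This was XIAP, which blocks caspases and had between 14.6 and 16.7 CPM in PFHxA cells, 52.3, 56.2, 15.9 and 84.4 CPM in PFBA cells and between 12.7 and 18.1 CPM in control cells. Its 3 high libraries were all of PFBA, and PFBA library c lay with the other groups. XIAP was lower in PFHxA than in PFBA cells (log2 fold change -1.74, adjusted p = 0.021) and was not called in PFBA against control (1.73, adjusted p = 0.304). With the trend removed the difference between the acids was -1.58 with an adjusted p of 0.108. Of 18 tested BCL2 family genes and partners, BMF was higher (0.24) and BNIP3 lower (-0.31) in PFHxA than in control cells. Over all genes 6.08% were called higher and 8.82% lower in that comparison. The trend-removed adjusted p was 0.268 for BMF and 0.0267 for BNIP3. Of 19 relatives and partners of the 9 genes, CCND1 was higher and CDKN1C, RRM1 and ZMAT2 were lower in PFHxA than in control cells, where 14.9% of all genes were called. With the trend removed CDKN1C stayed called (-0.87, adjusted p = 0.0326), the other 3 did not, and CDK6 was called.

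**Figure D4:**
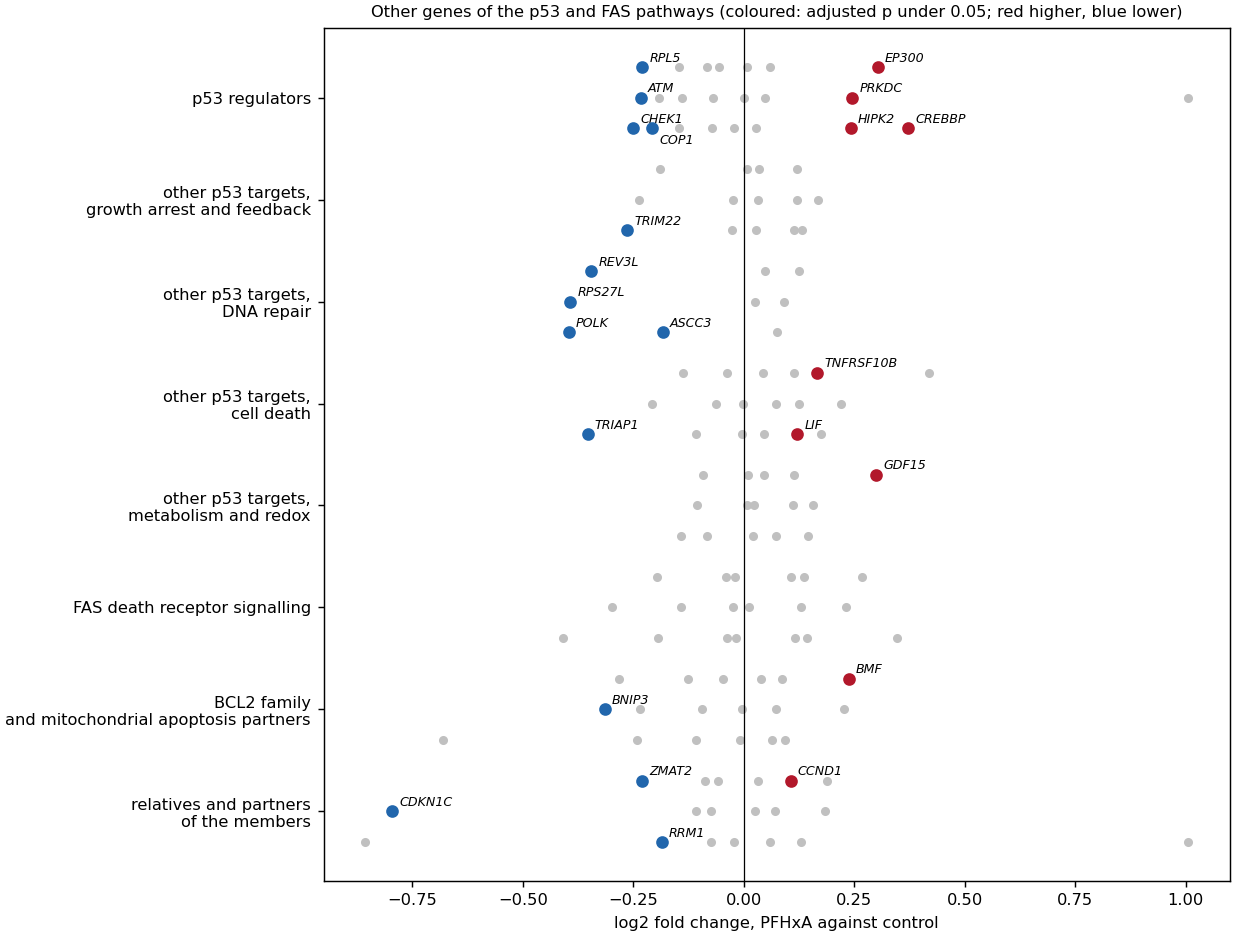
Log2 fold changes of PFHxA against control for the tested genes of 8 lists around p53 and FAS, each point a gene, with red points called higher and blue points called lower at an adjusted p under 0.05. On the lists other than that of relatives and partners, 114 genes were tested, and 8 were called higher and 11 lower, 16.7% in all. On the list of relatives and partners 19 were tested, and 1 was called higher and 3 lower.

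The genes whose levels were most like those of 3 of the 9 were picked by Pearson correlation of log2 CPM over 12 libraries, among 9581 coding genes with a mean of at least 10 CPM. The libraries share their treatment within a group and differ in GC slope, so the values are descriptions. Among those most like FAS were HDGFL3 (0.946) and ISCA1 (0.946), and among those most like CDKN1A were VPS37B (0.939) and TST (0.937). MDM2 was most like COX7A2L (0.957), NUDT16 (0.867) and NRSN2 (0.861), and without PFHxA library d these fell to 0.791, 0.11 and 0.147. Among the 36 pairs of the 9 genes, FAS and RRM2B had the highest correlation over 12 libraries, 0.914, and 0.661 after the group means were subtracted.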

How the data were processed

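The authors deposited 1 table of raw read counts, with a row per Ensembl gene. Reads were aligned with HISAT2 2.0.4 to GRCh38 (hg38), per the submitters' processing notes. How reads were counted, with which annotation release and strand setting, is not given in the sources used here. Total RNA was sequenced on an Illumina NovaSeq instrument, per the labels' protocols. Column prefixes give the groups, and the letters a to d are not tied to label numbers. The table's 12 FPKM columns were not used, so levels between genes, planned from FPKM, rest on CPM per kilobase.

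Tools were R 4.3.3 (edgeR 4.0.16, limma 3.58.1, DESeq2 1.42.0) and Python 3.11.15 (matplotlib 3.10.9). Genes were kept by filterByExpr (minimum count 10, total 15) and scaled by TMM. A single robust quasi-likelihood fit over 12 libraries, with no term but group, gave the 3 two-sided comparisons of groups, adjusted by Benjamini-Hochberg over 16554 genes, with intervals at 95%. Log2 CPM adds a prior count of 2. Trends along GC content and log2 length of the longest GENCODE 29 transcript (99.4% of tested genes matched) were fitted per library by splines with 5 degrees of freedom and entered as offsets. The fits were tested on simulated counts.

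The 9 genes and the lists were chosen with earlier results of these data known. Named beside the 9 were fixed partners, genes called in any comparison from each list, with the smallest p first, and for CDKN1A, MDM2 and FAS those of the 3 most correlated genes that are reported. Some genes are not reported here and were left out of the lists, their counts and the plots of lists. Genes with the largest excess in PFHxA library d were named after their values were seen. Each library was left out in turn. Other alternatives changed the scaling (RLE, upper quartile), the filter (none, stricter), the test (limma-voom, DESeq2), the libraries fitted (8 in place of 12), the trend, or added a block for the column letter.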

Additional observations from a re-analysis of the deposited data

Results flagged for a closer look

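In a group of 4 libraries, a library was listed where its gap to the nearest other exceeded Dixon's 95% critical share of the group's range. Over 35 genes and 105 groups 7 were listed, where chance gives about 1 in 20 groups. MDM2 stood at 153.9 CPM in PFHxA library d, against 47.7 to 65.1 CPM in the other 3, and GADD45A at 48.0 CPM in PFHxA library a, against 52.5 to 52.9 CPM.

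Control library d was apart for 2 genes, EP300 (178.7 CPM, others 212 CPM) and TRIAP1 (34.9 CPM, others 30.5 to 31.0 CPM). PRKAB1 stood at 78.5 CPM in PFHxA library d (others 74.1 to 74.4 CPM), BNIP3 at 51.7 CPM in PFHxA library c (others 48.9 to 49.4 CPM) and RRM1 at 176 CPM in PFBA library b (others 172 CPM).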

How the results depend on the processing

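The calls of FAS and RRM2B in PFHxA against control held under 8 of 9 alternatives, and removing the GC and length trend ended both. That alternative cut the genes called from 2466 to 433 in PFHxA against control and from 1806 to 146 in PFHxA against PFBA. It turned the direction of ZMAT3 (0.05195 against control, 0.04651 against PFBA), GADD45A (-0.001163) and TP53INP1 (0.09258) against PFBA. Leaving out each library gave 1523 to 2396 genes in PFHxA against control, lowest without PFHxA library b, and 1035 to 2187 in PFHxA against PFBA. In PFBA against control, 1 gene was called, 2 with no filter or with the 8 libraries compared, 0 with limma-voom or a block for the column letter, 44 with DESeq2, and 0 to 4 with a library left out. BBC3 in PFBA against control was -0.001832 with 8 libraries compared and -0.07569 to 0.063 with a library left out. Uncalled values also turned direction with a library left out for FAS in PFBA against control (-0.1413 to 0.03352), and for MDM2 (-0.09833 to 0.596) and GADD45A (-0.05289 to 0.03641) in PFHxA against control. Beyond the removed trend, the cause of these changes was not tested. No paired analysis was possible because the column letters are not tied to the labels' replicate numbers, so the block for the letter rests on no pairing given by the labels. FAS had 307 to 627 counts per library.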
